A study of Mus musculus with 4 samples.

Results

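The genes of amyloid precursor protein processing were followed in ribosome-bound RNA from CA1 neurons of mice that had been sleep deprived (SD) or left undisturbed (NSD). The set holds 9 of the 28193 genes in the deposited count table: the precursor App and its relatives Aplp1 and Aplp2, the protease gene Bace1, and Psen2, Ncstn, Psenen, Aph1a and Aph1b, which encode parts of gamma-secretase. The genes were chosen by name because Aph1b rose in these same libraries, so the Aph1b values chose the set and are given below as a description without a test. All 9 genes passed the minimum of more than 5 counts in every library.

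All animals were male mice aged 3 to 5 months. The labels name dorsal hippocampus and the genotype cFos-Cre:Ribotag, whereas the methods describe CA1 dissected from C57BL/6J mice that had received AAV8-c-Fos-ERT2-Cre-ERT2-PEST and the Cre-dependent AAV9-EF1a.DIO.HA-mRpl22.IRES2.eYFP. Every mouse of both groups was sleep deprived for 5 h on day 0 and given 4-hydroxytamoxifen at ZT2, which tagged the ribosomal protein Rpl22 with HA in cells that were expressing c-Fos. On day 7 the SD mice were kept awake for 5 h again by gentle handling and the NSD mice were left undisturbed, and the tissue was taken at ZT5. Both groups therefore hold cells tagged by an earlier bout of sleep loss, and the comparison is of the second bout alone. An HA antibody pulled down the tagged ribosomes from CA1 of 5 mice pooled per library, with 2 libraries and 10 mice per group. The labels give a batch number to each library, and batches 1 and 2 each hold 1 NSD and 1 SD library.

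Amyloid precursor protein and its relatives are membrane proteins of neurons that are cut in steps. A sheddase removes the large outer part, either BACE1 (beta-secretase) or an alpha-secretase such as ADAM10, and gamma-secretase then cuts the remaining stub within the membrane. Gamma-secretase is a complex of a presenilin as the catalytic subunit, nicastrin (Ncstn), PEN-2 (Psenen) and an APH1 subunit that acts as a scaffold. The complex also cuts Notch receptors and many other membrane proteins. The APP stub left by BACE1 gives rise to the amyloid peptide of Alzheimer's disease. Rodents have a duplicate of Aph1b, named Aph1c, beside it on the same chromosome.

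The sequences of Aph1b and Aph1c bear on how the main value can be read, because reads from one gene may align to the other. In the GENCODE mouse release 39 transcripts (GRCm39, minus strand), the coding sequence of Aph1b has 771 bases and that of Aph1c 774, and they were identical at 745 of 775 aligned positions (96.1%). Aph1a was much further away, with 61.4% identity to Aph1b. The following 150-base window, coding bases 49 to 198 of both genes counted from the first base of the start codon, holds the most differences. It spans exons 1 and 2 of 6, at chr9:66701438-66702599 for Aph1b and chr9:66740527-66741832 for Aph1c, and capitals mark the 15 positions at which they differ.
Aph1b: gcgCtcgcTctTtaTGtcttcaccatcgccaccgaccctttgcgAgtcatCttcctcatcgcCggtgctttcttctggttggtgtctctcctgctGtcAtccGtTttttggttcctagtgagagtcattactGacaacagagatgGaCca
Aph1c: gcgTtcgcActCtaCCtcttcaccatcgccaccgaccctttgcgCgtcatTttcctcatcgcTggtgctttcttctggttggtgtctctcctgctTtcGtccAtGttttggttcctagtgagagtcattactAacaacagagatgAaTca
A second window of the same length, across exons 3 to 5, had 0 differences and is printed once. It covers coding bases 352 to 501 of Aph1b (chr9:66691905-66697883) and 355 to 504 of Aph1c (chr9:66729621-66735958).
Aph1b and Aph1c: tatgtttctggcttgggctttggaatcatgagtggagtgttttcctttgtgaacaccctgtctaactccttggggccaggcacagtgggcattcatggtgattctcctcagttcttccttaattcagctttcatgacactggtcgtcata
Over the whole Aph1b transcript, untranslated parts included, 26.5% of all 30-base windows also occurred in the Aph1c transcript. The share was 9.30% for 100-base windows and 4.73% for 150-base windows, the length of 1 read of a pair. No window of any of these lengths occurred in Aph1a. The deposited values are estimated counts, in which a model had already divided ambiguous reads between genes.

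The 4 libraries held estimated count totals of 153511705 to 195910235 over all genes, with 26043 to 27448 genes counted at least once. Levels are given as CPM, which are counts divided by a library total that was adjusted with TMM factors so that the libraries can be compared. Markers of excitatory and CA1 neurons were present in all libraries. The 3 excitatory markers Slc17a7, Camk2a and Nrgn summed to 5626 to 6038 CPM, and the 7 CA1 pyramidal markers to 1378 and 1541 CPM in NSD and 1258 and 1399 CPM in SD. Markers of cells outside that label were also counted, and the 6 oligodendrocyte markers summed to 1539 to 1862 CPM and the 6 interneuron markers to 719 to 810 CPM. The 7 endothelial markers summed to 39.9 and 56.2 CPM in NSD and to 33.1 and 22.2 CPM in SD, so that the groups did not overlap. Among the CA1 markers, Wfs1, Fibcd1 and Neurod6 were lower in SD in edgeR with batch as a block and in DESeq2, and none of these passed in edgeR without the block. For the astrocyte, oligodendrocyte precursor, microglial, dentate granule and CA3 lists, the log2 ratio of the summed level, SD over NSD, lay between -0.03 and 0.12.

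Aph1b, the scaffold subunit whose rise chose the set, stood at 37.0 and 40.2 CPM in the NSD libraries and at 55.5 and 61.8 CPM in the SD libraries. The SD values were the 2 highest, an order that the choice of Aph1b by its rise in these libraries already favoured. The estimated counts behind these levels were 6139 and 6319 in NSD and 10036 and 11684 in SD. The mean was 38.6 ± 2.26 CPM in NSD and 58.7 ± 4.43 CPM in SD (SD over libraries, n = 2 per group), which is a 1.52-fold higher level, or 51.9% more. The log2 fold change was 0.60 (SE 0.080). Within batch 1 the difference was 0.58 on the log2 scale and within batch 2 it was 0.62. These differences and the SE come from the values that chose the set and are no test of it. In bulk RNA of this kind, a larger share of tagged cells that carry a transcript and more transcript per cell cannot be told apart. Of the 22338 genes tested, 509 had a larger log2 fold change than Aph1b, among them 238 of the 15551 protein-coding genes.

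**Figure D1:**
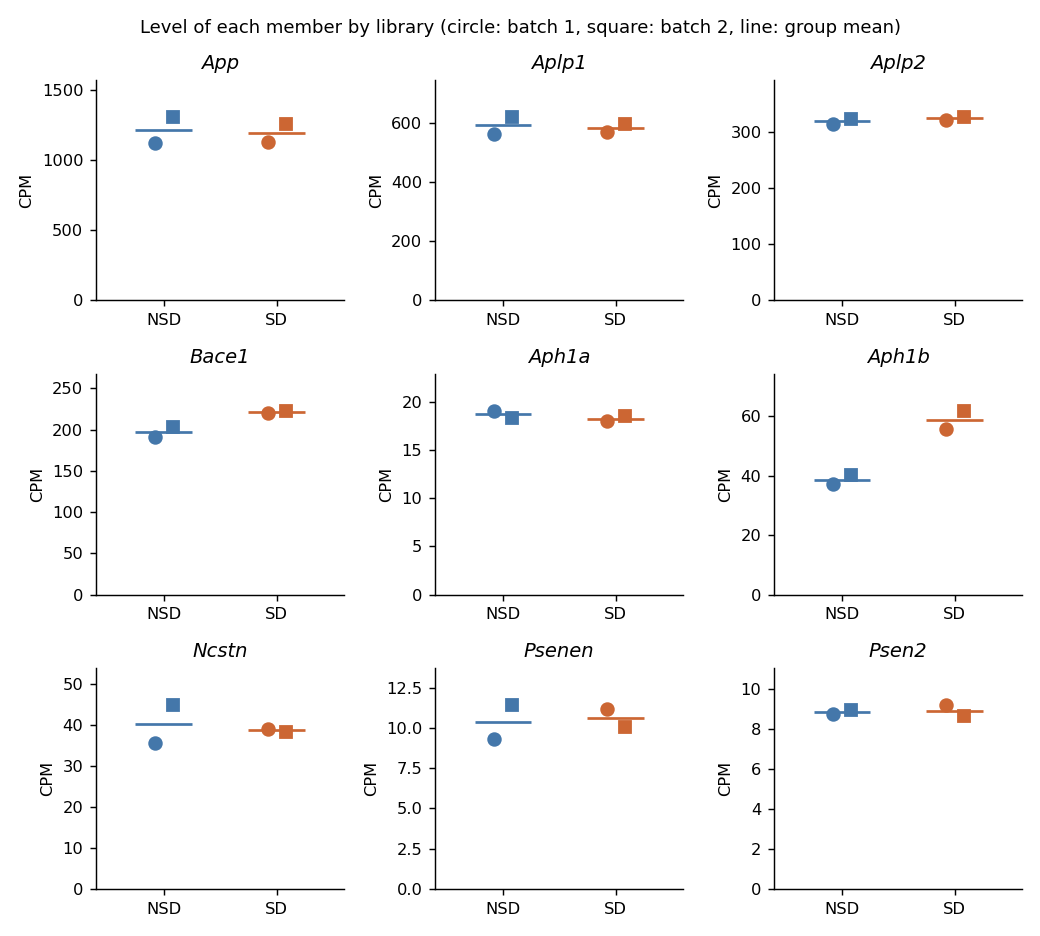
Level of each of the 9 genes in every library, in CPM on axes that start at 0, with NSD in blue and SD in orange; circles are batch 1, squares batch 2 and lines group means. Aph1b is at 37.0 and 40.2 CPM in NSD and 55.5 and 61.8 CPM in SD, Bace1 has a small gap between groups, and the points of the other 7 genes overlap.

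Aph1c, the near-identical neighbour of Aph1b, was at 10.1 and 9.58 CPM in NSD and at 10.6 and 11.4 CPM in SD. Both SD libraries were above both NSD libraries by a small margin, with a log2 fold change of 0.16 (SE 0.10) and an adjusted p of 0.476 in the quasi-likelihood test of edgeR, with p-values adjusted over all genes by the Benjamini-Hochberg method. With the counts of Aph1b and Aph1c added into 1 gene, which removes the question of how shared reads were divided, the log2 fold change was 0.52. Aph1b has no exon bases in common with any other gene of the table.

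Among the 3 Aph1 genes, the balance of levels differed between the groups. Per kilobase of exons, the scale on which genes of different length can be compared, Aph1b made up 38.6% and 41.7% of the summed Aph1 level in NSD and 49.4% and 51.1% in SD. Aph1a was the largest of the 3 in both NSD libraries, at 47.3% and 45.1%, and Aph1b in both SD libraries, where Aph1a made up 38.1% and 36.4%. Aph1c held 13.2% to 14.1% in NSD and 12.5% to 12.6% in SD. The summed level was 11.5 and 11.6 CPM per kb in NSD and 13.5 and 14.5 CPM per kb in SD. These shares rest on the Aph1b values that chose the set and were not tested. The exchange of the first place depends on the length used, because by the longest transcript, or by counts without a length, Aph1b was the largest on average in both groups.

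**Figure D2:**
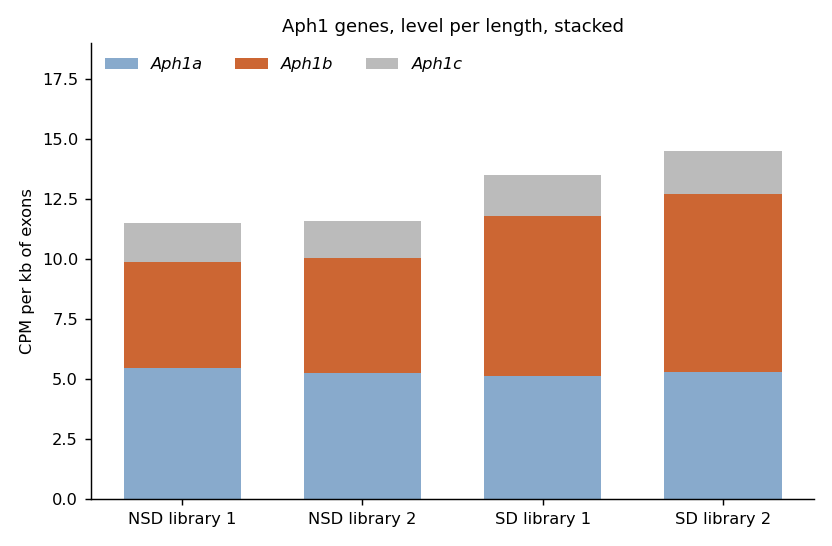
Levels of Aph1a, Aph1b and Aph1c in CPM per kb of exons, stacked, with 1 bar for each library. The Aph1b segment is taller in both SD bars, where the sums are 13.5 and 14.5 CPM per kb against 11.5 and 11.6 in NSD, while the Aph1a segments have similar heights in all 4.

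App, the precursor of the amyloid peptide, was read at 1124 and 1313 CPM in NSD and 1128 and 1262 CPM in SD. The groups overlapped, and in both of them the batch 2 library was the higher. The means were 1218 ± 133 and 1195 ± 94.96 CPM (n = 2 each), with a log2 fold change of -0.03 (SE 0.12, edgeR adjusted p = 0.937). The 95% interval of the difference ran from -18.5% to 18.0%.

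Aplp1, a relative of App found mainly in neurons, showed the same order of libraries, at 565 and 623 CPM in NSD and 572 and 598 CPM in SD. The SD values lay between the NSD values. Its log2 fold change was -0.02 (SE 0.092, edgeR adjusted p = 0.941), with a 95% interval of -14.9% to 14.0%.

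Aplp2, the more widely expressed relative, had the tightest values of the substrates, at 314 and 323 CPM in NSD and 321 and 327 CPM in SD. The groups overlapped. Its log2 fold change was 0.02 (SE 0.077, edgeR adjusted p = 0.914), with a 95% interval of -9.9% to 14.9%. Aplp1, App and Aplp2 made up 50.8%, 27.4% and 21.9% of their summed level per kilobase of exons in NSD and 50.5%, 27.1% and 22.4% in SD, as group means.

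Bace1, the beta-secretase, was the single gene of the remaining 8 whose groups did not overlap. It was read at 191 and 204 CPM in NSD and at 220.1 and 223 CPM in SD. The SD libraries lay close together, and both stood above the higher NSD library. The means were 197 ± 8.95 and 221 ± 1.93 CPM (n = 2 each), a difference of 12.2%, and the log2 fold change was 0.17 (SE 0.074). Bace1 did not pass the test, with an adjusted p of 0.275 in edgeR's quasi-likelihood fit, 0.108 in the fit with batch as a block and 0.0759 in DESeq2. The 95% interval of its difference ran from -0.3% to 26.3%. The difference was 0.20 on the log2 scale within batch 1 and 0.13 within batch 2. Among all genes tested, 22% had both SD values above both NSD values, as had 26.5% of protein-coding genes, so 1 of 8 is no larger a share than in the whole table.

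On the opposite strand, Rnf214 has 975 exon bases in common with Bace1, Gm49338 has 951 and Gm16536 has 135. Their counts came to 36.2%, 13.0% and 7.25% of that of Bace1. The log2 fold change was 0.05 for Rnf214, 0.19 for Gm49338 (edgeR adjusted p = 0.193) and 0.12 for Gm16536. Rnf214 and Gm49338, like Bace1, had both SD values above both NSD values. The kit marks strand, but whether the counting used it is not given in the sources used here, and the part of these genes in the Bace1 value was not tested.

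Psen2, one of the presenilins that form the catalytic subunit, had the lowest level of the set. Its values were 8.74 and 8.96 CPM in NSD and 9.21 and 8.65 CPM in SD. The SD values lay on either side of the NSD values. Its log2 fold change was 0.01 (SE 0.11, edgeR adjusted p = 0.971), with a 95% interval of -14.8% to 19.5%.

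Ncstn encodes nicastrin, the large glycoprotein that screens substrates of the complex, and was read at 35.6 and 44.9 CPM in NSD and 39.1 and 38.4 CPM in SD. Both SD libraries fell between the NSD libraries. The log2 fold change was -0.06 (SE 0.10, edgeR adjusted p = 0.846), with a 95% interval of -18.5% to 13.6%. The batches went opposite ways, with a difference of 0.14 on the log2 scale in batch 1 and -0.23 in batch 2. Ncstn has 195 exon bases in common with Copa on the opposite strand, whose count was 604% of that of Ncstn.

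Psenen encodes PEN-2, the small subunit needed to complete the complex, and its values were 9.32 and 11.4 CPM in NSD and 11.2 and 10.1 CPM in SD. The groups overlapped, and the batches again differed in direction, at 0.26 on the log2 scale in batch 1 and -0.18 in batch 2. In the fit, Psenen had a log2 fold change of 0.04 (SE 0.13, edgeR adjusted p = 0.925), with a 95% interval of -16.1% to 25.3%. Psenen has 119 exon bases in common with U2af1l4 on the opposite strand, whose count was 114% of that of Psenen and whose log2 fold change was -0.10. A further 111 bases are held in common with Gm49396, a gene with 11.6% of its count that was lower in SD (log2 fold change -1.42, edgeR adjusted p = 0.0397).

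Aph1a, the scaffold subunit that serves as the alternative to APH1B in the complex, was read at 19.05 and 18.29 CPM in NSD and at 18.0 and 18.5 CPM in SD. The 4 values lay within about 1 CPM of each other and the groups overlapped. The fitted log2 fold change was -0.03 (SE 0.081, edgeR adjusted p = 0.881), with a 95% interval of -14.2% to 11.1%. Aph1a has 485 exon bases in common with Car14 on the opposite strand, whose count was 10.04% of that of Aph1a.

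**Figure D3:**
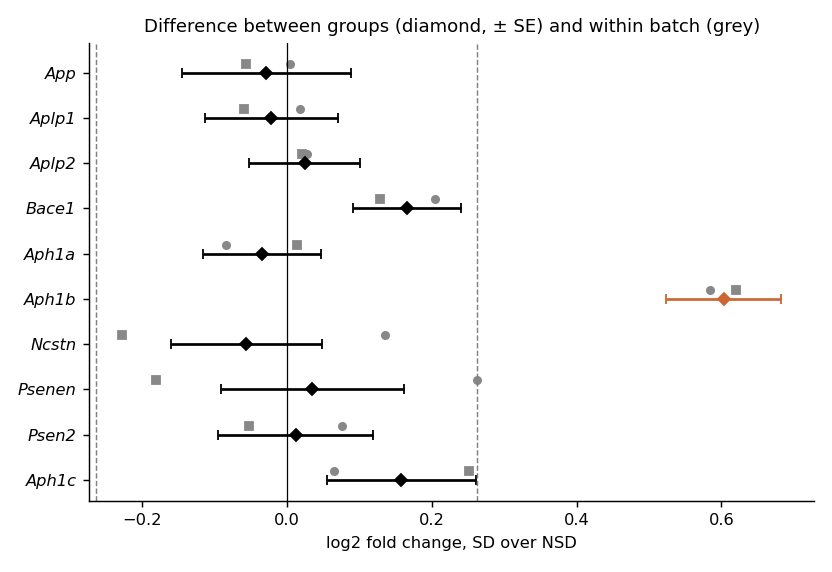
Log2 fold change of SD over NSD for the 9 genes and for Aph1c, with diamonds and bars for the fit ± SE and grey marks for the differences within batch 1 (circles) and batch 2 (squares); dashed lines mark a fold change of 1.2 in either direction. Aph1b, whose rise chose the set, is at 0.60, Bace1 is at 0.17, and Ncstn and Psenen have their batches on either side of 0.

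Of the 8 genes other than Aph1b, 0 were called in edgeR's quasi-likelihood test where a call needed both a fold change past 1.2 and an adjusted p below 0.05, a rule that called 3.1% of all genes tested and 1.49% of protein-coding genes. At an unadjusted p under 0.05 the count was also 0, beside 19.1% of all genes. It was 1 of 8, Bace1, with batch as a block and in DESeq2, beside 26.5% and 19.5% of all genes. Those fits likewise called 0 of the 8, beside 11.5% and 8.81% of all genes. Their log2 fold changes ran from -0.06 for Ncstn to 0.17 for Bace1, 4 above and 4 below 0, with a median of -0.004 beside -0.02 over all genes and 0.02 over protein-coding genes. The p-values measure the spread between pools of mice, with 2 pools per group. In edgeR that spread is estimated largely from all genes together, as 6.38 of the 8.38 degrees of freedom are prior ones. A value that missed the threshold does not show that a gene was equal in both groups, and the intervals above give the range allowed under that shared estimate.

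The levels of the genes spanned a wide range. On the scale of CPM per kb of exons, averaged over the 4 libraries, Aplp1 was the highest at 120.6, followed by App at 64.96, Aplp2 at 52.6 and Bace1 at 32.9. The gamma-secretase genes followed at a distance, with Psenen at 8.02, Ncstn at 7.13, Aph1b at 5.83, Aph1a at 5.27 and Psen2 at 1.45. Among 15533 protein-coding genes ranked on this scale, Aplp1 was at place 112, App at 311, Aplp2 at 440 and Bace1 at 842, while Psenen was at 3763, Ncstn at 4127, Aph1b at 4840, Aph1a at 5205 and Psen2 at 9561.

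Not every step in that order held in all libraries. The ranges over the 4 libraries did not overlap between Aplp1 (115 to 127), App (60.5 to 70.7), Aplp2 (51.5 to 53.7) and Bace1 (up to 34.99 CPM per kb). They overlapped between Psenen (7.12 to 8.73) and Ncstn (6.43 to 8.10), between Ncstn and Aph1b (4.44 to 7.41), and between Aph1b and Aph1a (5.13 to 5.44), so the ranges of these neighbours were not apart. Psenen was nevertheless above Ncstn in each of the 4 libraries. Aph1b was below Aph1a in both NSD libraries, at 4.44 and 4.82 against 5.44 and 5.22 CPM per kb, and above it in both SD libraries, at 6.66 and 7.41 against 5.13 and 5.28. Psen2, at 1.41 to 1.502, lay below all of the others. With the length of the canonical transcript alone, a setting added after the data had been seen, 5 of the 9 genes kept their place and Psenen, Ncstn, Aph1b and Aph1a changed order.

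**Figure D4:**
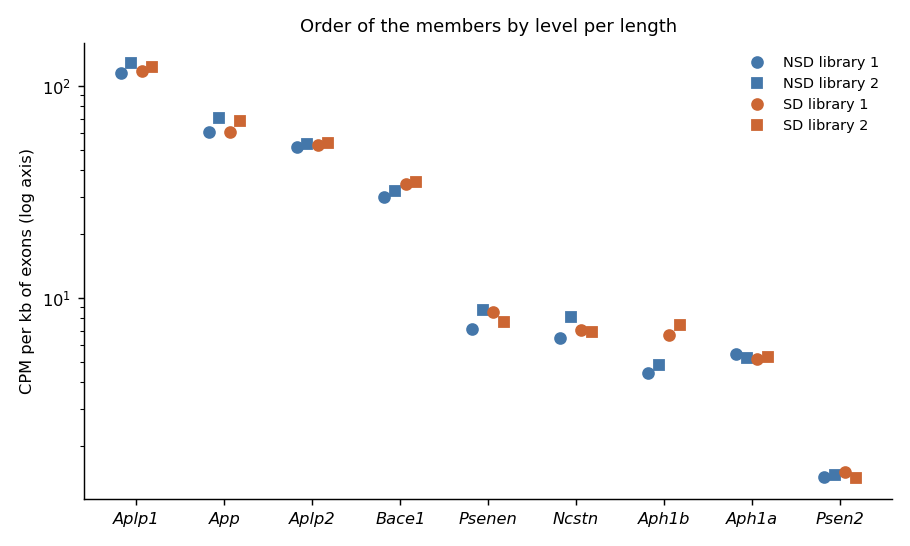
Level of the 9 genes in each library in CPM per kb of exons on a log axis, ordered by the mean, with NSD in blue, SD in orange, batch 1 as circles and batch 2 as squares. The substrates and Bace1 reach up to 127 CPM per kb, and the gamma-secretase genes lie between 1.41 and 8.73, with Aph1b as the gene whose NSD and SD points are furthest apart on the log axis.

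A wider list of 97 genes that act with these proteins was examined in 9 groups, all of which passed the count minimum. In edgeR's quasi-likelihood test 0 of the 97 were called in either direction, beside 0.77% of all genes called higher and 2.33% called lower. Of protein-coding genes, 1.49% were called in either direction. At an unadjusted p under 0.05 there were 22 of 97, beside 19.1% of all genes. With batch as a block, 4 were called higher and 5 lower, beside 2.99% and 8.47% of all genes, and DESeq2 called 4 higher and 2 lower, beside 3% and 5.8%. As a median, the 97 had a log2 fold change of 0.03. The SD libraries were both above the NSD libraries for 22 of them, beside 22% of all genes and 26.5% of protein-coding genes. They were both below for 22, beside 27.5% of all genes and 20% of protein-coding genes. In the groups that follow, an adjusted p and the log2 fold change and SE printed with it are edgeR's with batch as a block, while medians and log2 fold changes printed without a p are from the fit without it. None of these genes passed edgeR's test without the block, where the lowest adjusted p of the 97 was 0.0652.

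The other sheddases were 4 of 4 above 0, beside 47.2% of all genes and 54.2% of protein-coding genes. Their median log2 fold change was 0.15, and 0 of 4 passed the test with or without the block. Adam10, the main alpha-secretase of neurons and the highest of them per kilobase, was read at 74.2 and 79.6 CPM in NSD and 83.7 and 84.8 CPM in SD, a log2 fold change of 0.13 (SE 0.055, adjusted p = 0.138). Adam9, a metalloprotease that can also cut APP, was at 37.8 and 40.8 CPM in NSD and 45.6 and 43.2 CPM in SD, a log2 fold change of 0.18 (SE 0.065, adjusted p = 0.0942). Neither gene had overlapping groups, whereas the groups of the rest of this list overlapped.

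Proteins that bind or regulate gamma-secretase gave 0 of 6 past the test, and 5 of 6 were above 0, beside 47.2% of all genes. The 6th was Gsap, the gamma-secretase activating protein, at 4.25 and 4.18 CPM in NSD and 3.44 and 2.53 CPM in SD, a log2 fold change of -0.51 (SE 0.16, adjusted p = 0.0525). Bsg, a membrane glycoprotein that copurifies with the complex and the highest of these per kilobase, had a log2 fold change of 0.04. Of the 4 signal peptide peptidases, relatives of the presenilins that cut other membrane proteins, 0 passed. Sppl3 was the highest, with a log2 fold change of 0.01, Sppl2b had -0.19 (adjusted p = 0.112) and H13 had 0.10 (adjusted p = 0.364).

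Adaptors of the APP tail and BRI family proteins gave 2 of 17 past the test with the block and a median log2 fold change of 0.02. Shc3, a neuronal adaptor of tyrosine kinase signalling, was higher in SD, at 139 and 133 CPM in NSD against 179 and 158 CPM in SD (log2 fold change 0.31, SE 0.062, adjusted p = 0.00495). Itm2a, a BRI family member, was lower, at 3.94 and 5.39 CPM in NSD against 3.17 and 2.93 CPM in SD (log2 fold change -0.60, SE 0.17, adjusted p = 0.0292). DESeq2 did not call Itm2a (adjusted p = 0.051 in DESeq2). Itm2c, the highest of this group per kilobase and a relative of Itm2a, had a log2 fold change of -0.13.

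Of 19 genes for the traffic of APP and BACE1, 1 passed the test with the block. Cd2ap, a scaffold at sites of endocytosis, was at 16.4 and 14.8 CPM in NSD and 11.8 and 8.62 CPM in SD (log2 fold change -0.63, SE 0.097, adjusted p = 0.000975). Snx27, a sorting nexin that works with retromer, was at 178 and 193 CPM in NSD and 214 and 209.9 CPM in SD (log2 fold change 0.19, SE 0.066, adjusted p = 0.0727). Rtn1, a reticulon and the highest of this group per kilobase, had a log2 fold change of 0.05, and the median of the 19 was 0.02. Itm2a and Cd2ap were lower in the same libraries in which the summed endothelial markers were lower. All 7 of those markers were below 0, with a median log2 fold change of -0.82, and none was at 0 in any library. Both SD libraries were below both NSD libraries for 6 of the 7, beside 27.5% of all genes. With the block 5 of the 7 passed the test, beside 8.47% of all genes called lower, and without it 0 passed. The part of these markers in the values of Itm2a and Cd2ap was not tested.

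Of 7 proteases that degrade the amyloid peptide, 0 passed. Ide, the insulin-degrading enzyme, was at 37.8 and 46.8 CPM in NSD and 56.6 and 41.9 CPM in SD, and Mme, which encodes neprilysin, at 4.88 and 4.06 CPM in NSD and 5.57 and 4.84 CPM in SD. The groups of both overlapped, with log2 fold changes of 0.22 each. Ctsd, a lysosomal protease and the highest of the 7 per kilobase, was at 151 and 161 CPM in NSD and 158 and 155 CPM in SD.

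Among 13 other substrates of BACE1, 3 passed the test with the block, 1 higher and 2 lower, and the median log2 fold change was -0.04. Scn4b, a beta subunit of voltage-gated sodium channels, was higher in SD, at 72.5 and 87.5 CPM in NSD against 93.7 and 108 CPM in SD (log2 fold change 0.34, SE 0.054, adjusted p = 0.00118). Nrg3, a ligand of the ErbB4 receptor, was lower, at 52.5 and 49.6 CPM in NSD against 42.6 and 41.8 CPM in SD (log2 fold change -0.27, SE 0.059, adjusted p = 0.00765). Jag1, a Notch ligand, was the other gene that was lower, and DESeq2 did not call it (adjusted p = 0.0904 in DESeq2). As for Itm2a and Cd2ap, the part of the endothelial markers in the value of Jag1 was not tested. Scn2b, the highest of these per kilobase and a further sodium channel subunit, was at 499 and 548 CPM in NSD and 604 and 629 CPM in SD, a log2 fold change of 0.24. With the block, Scn2b (adjusted p = 0.0421), its fellow substrate Cachd1 (adjusted p = 0.0173, log2 fold change -0.24) and the adaptor Numbl (adjusted p = 0.0386, log2 fold change -0.19) were below 0.05 but short of the fold change of 1.2, so they were not called. In DESeq2 the same held for Scn2b (adjusted p = 0.0122), Nrg3 and Snx27.

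Among 21 other substrates of gamma-secretase, 3 passed with the block, and the median log2 fold change was 0.04. Efnb2, an ephrin ligand, was higher in SD, at 82.1 and 90.2 CPM in NSD against 101 and 107 CPM in SD (log2 fold change 0.27, SE 0.054, adjusted p = 0.00508). Epha4, an ephrin receptor, was lower, at 412 and 465 CPM in NSD against 334 and 359 CPM in SD (log2 fold change -0.34, SE 0.068, adjusted p = 0.00531). Ngfr, the p75 neurotrophin receptor, was the other gene that was higher. Cx3cl1, a membrane-bound chemokine of neurons and the highest of these per kilobase, had a log2 fold change of 0.07.

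Transcriptional targets of Notch, whose receptor is released into the nucleus by gamma-secretase, gave 0 of 6 past the test and a median log2 fold change of -0.05. Hey1, the highest of them per kilobase, was at 29.2 and 31.5 CPM in NSD and 30.3 and 31.8 CPM in SD. Hey2 was at 2.04 and 2.13 CPM in NSD and 2.65 and 3.35 CPM in SD (adjusted p = 0.0826), and Heyl at 2.86 and 2.36 CPM in NSD and 1.71 and 1.73 CPM in SD (adjusted p = 0.0642). Hey2 and Heyl thus lay on opposite sides of 0, at 0.52 and -0.60.

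**Figure D5:**
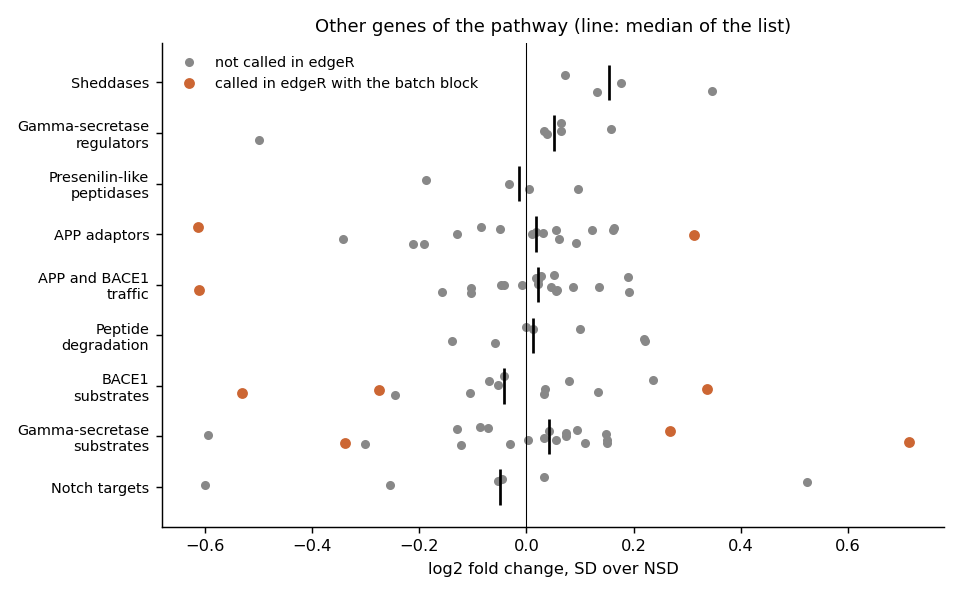
Log2 fold change of SD over NSD for the 97 other genes in their 9 groups, with a black line at the median of each group. The medians run from -0.05 to 0.15, and orange points are the 9 genes called in edgeR with batch as a block and all 4 libraries, 4 to the right of 0 and 5 to the left. Of these, 6 were also called by DESeq2, and the plotted values are from the fit without the block.

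The genes whose pattern over the 4 libraries was most like that of Aph1b were found by the Euclidean distance between log2 CPM values, each gene centred on its own mean, among 22329 other genes. They were Gm26520, a long noncoding RNA (distance 0.016), Dusp19, a phosphatase of the dual-specificity family (0.038), Gm9403, a pseudogene (0.050), Six4, a homeobox transcription factor (0.063), and Tspan9, a tetraspanin (0.064). Dusp19 was at 8.94 and 9.55 CPM in NSD and 12.9 and 14.6 CPM in SD, and Tspan9 at 55.4 and 63.1 CPM in NSD and 82.6 and 92.0 CPM in SD. With 4 libraries, closeness of this kind says little beyond a like difference between the groups and between the batches.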

How the data were processed

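Ribosome-bound RNA of 2 NSD and 2 SD libraries was sequenced in paired reads of 150 bases. After trimming, the authors aligned the reads to mm39 with STAR 2.7.8a, quantified them against Ensembl release 110 with the E/M model of Partek Flow and deposited estimated counts per gene, not normalized; whether the counting used strand is not given in the sources used here. The members and gene lists were chosen with earlier results of these data known.

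The deposited estimated counts were rounded, and the 22338 genes above a count of 5 in each library entered edgeR 4.0.16 (R 4.3.3, TMM factors 0.965 to 1.02, quasi-likelihood fit with condition alone, common dispersion 0.0296, prior degrees of freedom 6.38, Benjamini-Hochberg adjustment). Genes were called at a fold change past 1.2 with an adjusted p below 0.05. Intervals are 95% with 8.38 degrees of freedom. The script was tested on simulated data. CPM per kb used the union of exons in GENCODE mouse release 39, which also gave overlaps and sequences; Hm13 was found under its synonym H13.

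Named were all members, Aph1c, list genes called in the main test or with the block, values for up to 2 genes per list with the smallest adjusted p under the block (also in lists with no call), the highest gene of each list per kilobase and the 5 genes most like Aph1b. Genes that overlap a member were named because of that overlap, and Cachd1 and Numbl after their values were seen.

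Labels give batch numbers that match the replicate numbers, which makes them pairs of 1 NSD and 1 SD library; deviations of same-numbered libraries correlated at 0.178 across genes. Alternatives were the replicate block, DESeq2 1.42.0, its size factors in edgeR, no filter, filterByExpr, protein-coding genes only, no fold threshold, Aph1b and Aph1c summed, other gene lengths, raw totals for the marker sums, and each library left out. The longest and canonical transcript lengths for the Aph1b share, and the canonical length for levels, were chosen after seeing the data. Some results for single marker genes are not reported here.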

Additional observations from a re-analysis of the deposited data

How the results depend on the processing

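The number of calls depended on the tool, the block and the genes entered, and the cause was not tested. Over all genes, 172 were called higher and 520 lower. The replicate block, which pairs libraries of a batch, gave 668 and 1891, DESeq2 671 and 1296, no count filter 50 and 80, filterByExpr 1 and 0, and protein-coding genes alone 51 and 39. Leaving out a library, where the lone library is assumed to vary like the other group, gave 124 to 308 higher and 78 to 1955 lower, with 78 lower without NSD library 1, 292 and 1955 without SD library 1, and 308 higher without SD library 2. Of the 97 pathway genes, 0 were called higher and 0 lower; the block called 4 and 5, DESeq2 4 and 2, and leaving out a library 0 to 2 and 0 to 1. These calls appeared without NSD library 2 (Scn4b), SD library 1 (Ngfr, Scn4b and Cd2ap) and SD library 2 (Shc3 and Ide). The 8 members other than Aph1b had 0 calls under every alternative run.

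The log2 fold change of Aph1b was 0.52 to 0.63 over the other settings and 0.54 to 0.68 with a library left out, and Bace1 ranged from 0.15 to 0.19 and from 0.15 to 0.21. Members near 0 changed sign. App was at 0.00068 without a filter, Aplp1 at 0.0015 in DESeq2 and with its size factors in edgeR and at 0.0073 without a filter, and Psen2 at -0.0083 among protein-coding genes. With a library left out, App ran from -0.11 to 0.088, Aplp1 from -0.062 to 0.052, Psen2 from -0.034 to 0.070, Ncstn from -0.18 to 0.12, Psenen from -0.075 to 0.19 and Aph1a from -0.064 to 0.024.

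The Aph1b share of the Aph1 level in NSD and SD was 40.1% and 50.2%, ran over 38.6% to 41.7% and 49.4% to 51.1% with a library left out, and was 57.5% and 66.7% by counts without length and 48.0% and 58.3% per kb of the longest transcript. Per kb of the canonical transcript it was 48.9% in SD, and 5 of 9 members kept their place in the order of levels. The block changed no call of a member. The summed endothelial markers differed by -0.80 on the log2 scale, and by -0.85 with raw library totals. Each group had 2 libraries, which limits the precision.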

Other observations

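Around Aph1b on chromosome 9, 9 other genes that passed the count minimum lie within 250 kb. Their log2 fold changes ran from -0.12 for Car12, a carbonic anhydrase, to 0.48 for Gm10647, a gene with a mean under 0.3 CPM in both groups. In edgeR's quasi-likelihood test 0 of the 9 were called, with or without batch as a block. At an unadjusted p under 0.05 without the block there was 1, Rab8b, which was also the 1 gene that DESeq2 called. Rab8b, a small GTPase of vesicle transport on the far side of Aph1c, was at 70.0 CPM in NSD and 83.3 CPM in SD on average, a log2 fold change of 0.25 (SE 0.068, edgeR adjusted p = 0.0872), with an adjusted p of 0.00786 with batch as a block and of 0.0118 in DESeq2. Its fold change of 1.19 in the CPM means is close to the 1.2 that a call needed. Tpm1, which encodes a tropomyosin, was at 79.7 and 77.3 CPM. These neighbours were looked at after the values of Aph1b were known.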
